A study of Pisaster ochraceus with 50 samples.

Results

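The genes described here are the 80 whose transcripts were most reduced in the pyloric caecum of larger ochre sea stars, Pisaster ochraceus, an intertidal predator. They were selected on the very values that follow for caecum. Counts were scaled to CPM, each gene's count relative to the total gene reads of its library, in the 15 caecum libraries of asymptomatic animals. Of 21777 genes, 5468 had a mean of at least 10 CPM there, and 125 of those had a Spearman correlation with size class (small 1, medium 2, large 3, x-large 4) of -0.6 or lower. The 80 with the steepest downward slope of log2(CPM + 2) per class were taken, so their fall with size in caecum is a description and carries no test. A correlation of 0.6 or more, the mirror image, was found for 375 genes.

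The pyloric caeca are paired digestive glands that run along each arm of a sea star. They secrete digestive enzymes, take up nutrients and store lipid and other reserves, which are drawn on during fasting and gamete growth. The files pair no gene ID with a name, so the genes are given by ID and nothing is said of their functions.

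The study sampled dermis, tube feet and pyloric caecum from 17 wild animals of Point Reyes and sequenced their RNA. The 15 asymptomatic animals gave 3 small, 3 medium, 5 large and 4 x-large caecum libraries, 3, 3, 5 and 3 dermis libraries, and 2, 3, 5 and 3 tube feet libraries, each library from a different animal within its tissue. Both remaining animals had sea star wasting disease, in which lesions form and arms are lost: M0D055233U was large, not feeding and from McClures Beach, and M0D055236X was medium, not feeding and from Lifeboat House. A pair of tube feet libraries from a Friday Harbor animal without a size label enters no comparison. All asymptomatic animals came from McClures Beach except M0D055234V, a large purple animal of Lifeboat House. Small animals were all orange, medium animals were 1 orange and 2 brown, the other large animals were brown, and x-large animals were 2 orange and 2 brown. Feeding was recorded in M0D055232T (large) and M0D055231S (x-large) and in no small or medium animal, so colour, feeding and size were partly tied. What a batch stood for is not stated in the labels.

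Gene reads per asymptomatic library ran from 721096 to 1003306 in caecum, from 373930 to 611964 in dermis and from 619066 to 732460 in tube feet, so 1 read was worth about 1 to 3 CPM. Between 71.0% and 78.8% of counted caecum reads fell outside the annotated genes. A single gene outside the set, g13155, took 23.5% ± 4.76 of caecum gene reads in small animals (SD, n = 3), 20.7% ± 5.11 in medium ones (n = 3), 18.2% ± 7.43 in large ones (n = 5), and 30.3% ± 9.56 for the x-large class (n = 4). Its share moves the CPM of every other gene. With its reads left out of the totals, the median slope of the 80 was -0.58 against -0.60, and 63 of the 80 were chosen again. With CPM also scaled by TMM factors, which were 0.63 to 0.87 in the small libraries, the median slope was -0.70. Under that scaling 65 of the 80 were chosen again. As a check of the tissue label, the 100 genes most in excess in dermis held 0.0284% to 0.0369% of caecum gene reads in the class means, and the 100 of tube feet held 0.0411% to 0.0534%. The 100 most caecum-enriched genes held 43.5% to 50.4%. These lists were built on the same libraries. None of the 80 genes was in the dermis or tube feet list. Those lists hold genes in excess over caecum, while the 80 had to reach 10 CPM there, so this was largely set in advance. In the caecum list were 14 of the 80, beside 100 of all 5468 genes of 10 CPM or more.

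Together the 80 genes held 9.65% ± 0.879 of caecum gene reads in small animals (SD, n = 3), 5.95% ± 0.323 in medium ones (n = 3), 3.23% ± 0.681 in large ones (n = 5), and 2.996% ± 1.02 for the x-large class (n = 4). The share thus dropped at the first and the second step of size, while the large and x-large classes differed by less than their spread. Most of it came from the 12 genes with a mean of 1000 CPM or more, which held 8.36% ± 0.584, 5.16% ± 0.303, 2.75% ± 0.612 and 2.69% ± 1.01 in the same order. In a bulk biopsy, fewer cells of a type and less RNA per cell cannot be told apart. By level, 37 of the 80 had a mean under 50 CPM and 31 lay from 50 to under 1000 CPM, with a median of 54.3 CPM and a range of 10.3 to 10489 CPM.

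Weighing every gene alike, the mean log2(CPM + 2) of the 80 was 7.39 ± 0.26 in small animals, 6.71 ± 0.16 in medium ones, 5.85 ± 0.24 in large ones, and 5.33 ± 0.29 for the x-large class. Each class lay wholly below the class before it: 7.17 to 7.67, 6.53 to 6.86, 5.54 to 6.15 and 4.90 to 5.52. The same score over the other genes of 10 CPM or more was 4.49 ± 0.27, 4.99 ± 0.14, 5.02 ± 0.22 and 4.84 ± 0.23, with no such descent.

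Slopes ran from -1.52 to -0.45 per class on the log2(CPM + 2) scale with a median of -0.60, against a median of 0.08 over all genes of 10 CPM or more. Spearman correlations ran from -0.866 to -0.601. Small animals exceeded x-large ones by a median of 3.65-fold in mean CPM (range 1.93 to 49.9), and by 4-fold or more for 34 of the 80. The last gene inside the slope threshold, g12453, had a slope of -0.453 and the first outside, g5336, one of -0.447. Between those 2 genes the slope changes little, so the edge of the set is arbitrary. With edgeR's quasi-likelihood test on the same libraries, 31 of the 80 passed a false discovery rate of 0.01 as lower with size, beside 0.318% of all genes tested. That count uses the contrast that chose the genes and supports nothing.

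The fall was not spread evenly over the classes. Between class means of log2(CPM + 2), the median gene fell by 0.59 from small to medium, by 0.90 from medium to large and by 0.48 from large to x-large, of a median total fall of 1.91. The largest fall lay at small to medium for 25 genes, at medium to large for 38 and at large to x-large for 17. A fall at every step was seen for 54 genes. The other 26 rose at some step: 10 genes rose from small to medium, 5 from medium to large and 11 from large to x-large. Every small library exceeded every x-large one for 69 of the 80, beside 3.04% of all genes of 10 CPM or more. All 6 small and medium libraries exceeded all 9 large and x-large ones for 5 of the 80, beside 0.0914% of all such genes, and again the choice of genes fixes these counts. Animals of a class differed widely, with a median SD within classes of 0.77 on the log2 scale (range 0.39 to 1.49), which is more than the median step at small to medium or at large to x-large.

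**Figure D1:**
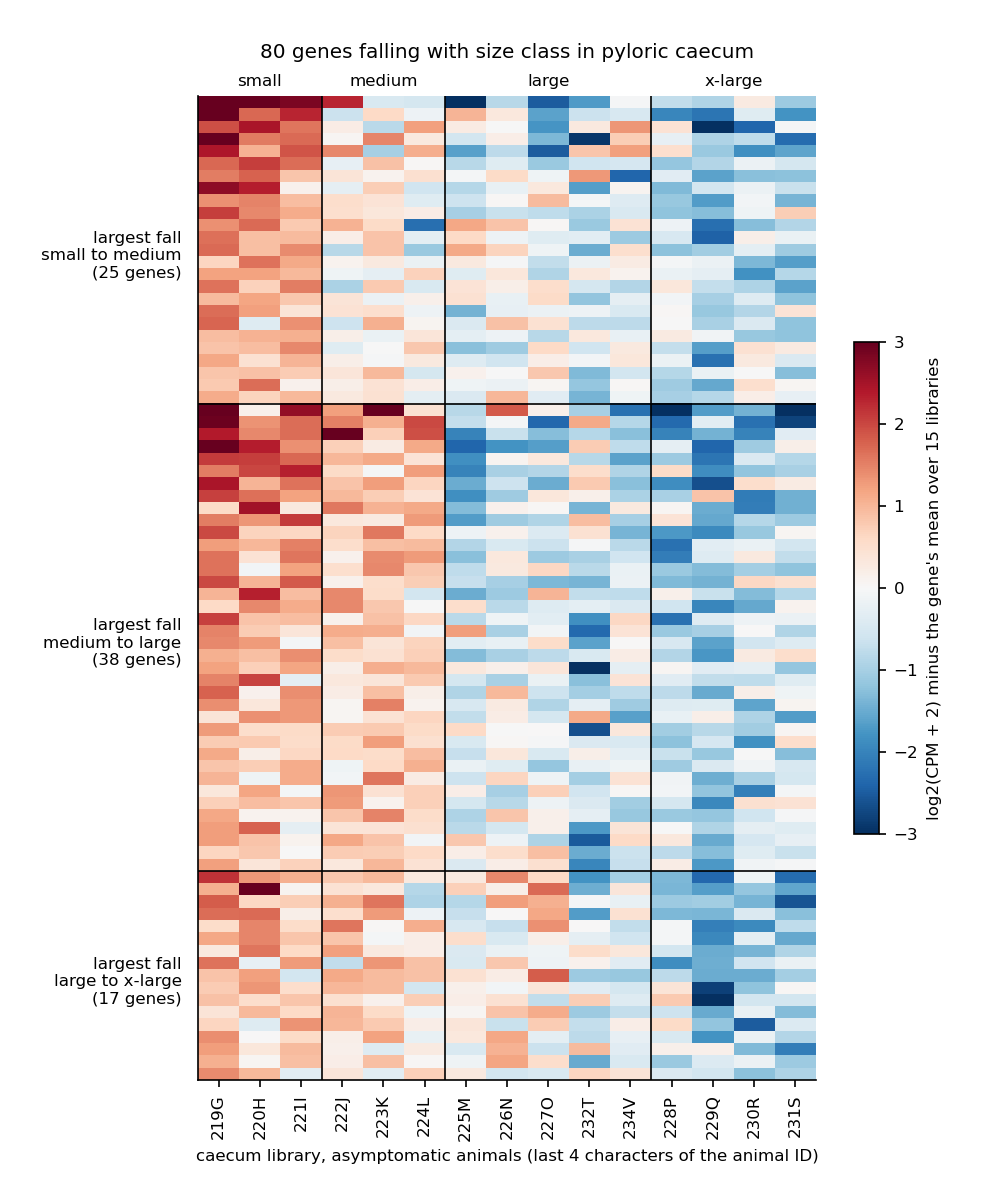
Level of each of the 80 genes (rows) in each asymptomatic caecum library (columns, by size class), as log2(CPM + 2) minus the gene's mean over 15 libraries; red is above and blue below that mean. Rows are grouped by the step with the largest fall (25, 38 and 17 genes), and the right-hand columns are blue in all 3 blocks, while single libraries depart from their class.

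Among genes with their largest fall at the first step, g12820 and g6696 had the lowest slopes over all classes. For g12820 the small animals had 6862, 5681 and 2826 CPM and the medium animals 1929, 288 and 274 CPM. The large animals had 15.3, 221, 68.7, 121 and 390 CPM and the x-large ones 237, 210, 480 and 187 CPM. Every small library of g12820 was above all others, 2 of the 3 medium ones lay within the range of the larger animals, and the large and x-large classes overlapped. Its slope was -1.46. For g6696 the small animals had 266, 58.4 and 87.1 CPM, the medium ones 9.60, 25.7 and 14.4 CPM. The large animals had 34.7, 20.7, 3.96, 9.69 and 11.02 CPM and the x-large ones 2.69, 1.99, 12.1 and 3.28 CPM. Here too the small libraries stood above all others, and medium and large ones overlapped.

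Where the largest fall lay at medium to large, the lowest slopes over all classes were those of g11410 and g10681. Other genes could fall further at that step itself. The small animals had 149, 15.9 and 97.4 CPM of g11410 and the medium animals 35.6, 177 and 19.9 CPM. In large animals it was at 6.93, 55.0, 15.8, 6.06 and 1.38 CPM, and in x-large animals at 0, 2.99, 4.02 and 0 CPM. Small and medium animals therefore overlapped in g11410, the slope of which was the lowest of the 80 (-1.52), and in 2 x-large libraries it had no read. For g10681 the small animals had 2639, 877 and 1088 CPM and the medium ones 980, 716 and 1352 CPM. The large animals had 207, 330, 64.7, 756 and 187 CPM and the x-large ones 65.9, 274, 70.3 and 48.0 CPM. The feeding animal gave the high large value, and it alone overlapped the medium class.

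Of the genes with their largest fall at the last step, g1528 and g9883 had the lowest slopes over all classes. Again, others could fall further at that step itself. Small animals had 67.1, 35.9 and 30.1 CPM of g1528, medium animals 24.7, 27.8 and 16.6 CPM. Large animals had 16.6, 39.4, 21.1, 2.42 and 5.51 CPM and x-large animals 4.03, 0.997, 12.1 and 1.09 CPM. The large class of g1528 reached from within the small range down to within the x-large range. For g9883 the small animals had 30.4, 139 and 14.5 CPM, the medium ones 19.2, 17.5 and 6.63 CPM. The large animals had 23.6, 15.6, 48.9, 3.63 and 17.9 CPM against 4.03, 2.99, 5.02 and 3.28 CPM in x-large ones. This gene was uneven in the first 3 classes and low in all 4 x-large libraries.

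The most abundant of the 80 were g20962 and g12788. For g20962 the small animals had 18389, 16258 and 22862 CPM and the medium ones 12851, 12016 and 14491 CPM. The large animals had 3563, 4489, 5123, 6409 and 10257 CPM and the x-large ones 4736, 2612, 10577 and 12708 CPM. The mean was thus higher in x-large (7658 ± 4762 CPM, SD, n = 4) than in large animals (5968 ± 2611 CPM, n = 5), by less than the spread. For g12788 the small animals had 28526, 10663 and 16336 CPM, the medium ones 9562, 12479 and 8178 CPM. The large animals had 1876, 3407, 1866, 9029 and 2191 CPM and the x-large ones 1439, 839, 7530 and 6213 CPM. Both feeding animals, at 9029 and 6213 CPM, and the x-large M0D055230R, at 7530 CPM, were apart from the remaining larger animals, which lay at 3407 CPM or less. The feeding M0D055232T and M0D055230R gave the 2 asymptomatic caecum libraries of batch 1, and the feeding M0D055231S was in batch 5.

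**Figure D2:**
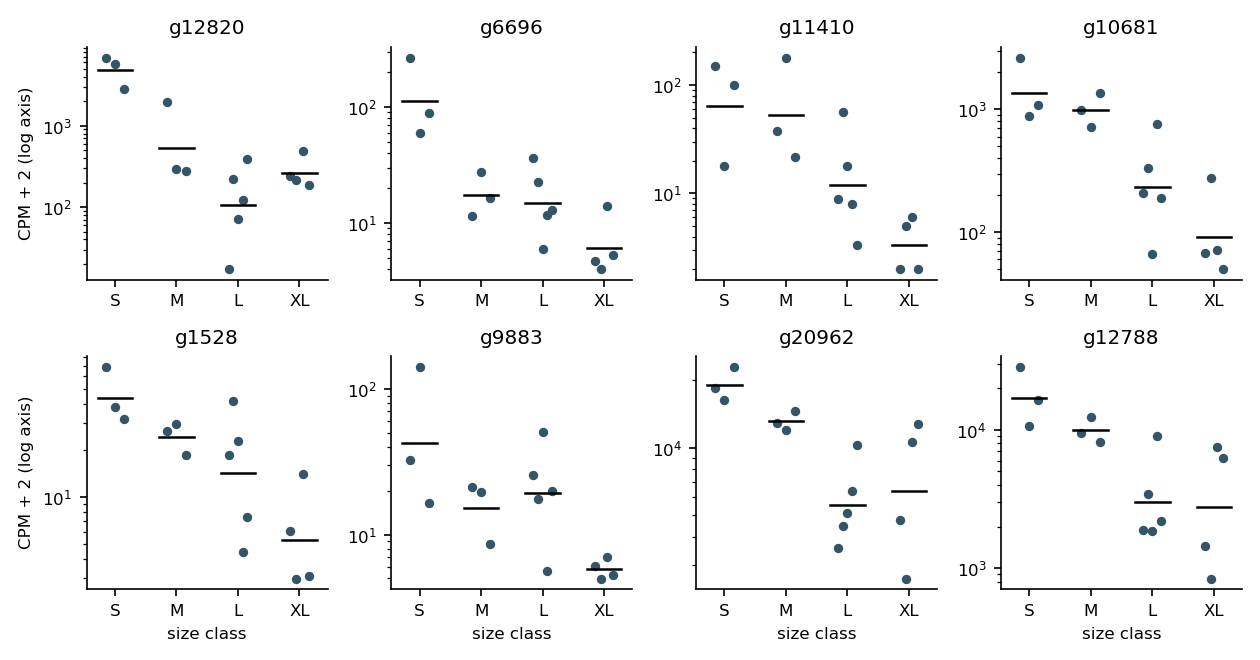
CPM + 2 on log axes against size class (S small, M medium, L large, XL x-large) for 8 genes, with 1 point for each asymptomatic caecum library and a bar at the mean of log2(CPM + 2). The 2 genes at the upper left drop by the medium class, g11410 and g10681 drop between medium and large, g1528 and g9883 are lowest in x-large, and g20962 and g12788 reach 22862 and 28526 CPM in small animals.

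Batches were uneven over size. Batch 3 held 5 of the 15 caecum libraries, from small, medium and large animals, and batch 4 held 5 from all 4 classes, while the 5 libraries of batches 1, 2 and 5 came from large and x-large animals only. Within batch 3 alone the slope was negative for 75 of the 80 genes (median -0.68), within batch 4 for all 80 (median -0.64), and with batch as a covariate for all 80 (median -0.59). These are the libraries that chose the genes, so the counts are a description. When the rule was applied to batches 3 and 4 alone, 53 of the 80 were chosen again.

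Once each gene's class means were removed, the 80 did not rise and fall as a block from animal to animal. The median correlation of residuals over the 3160 pairs of genes was 0.08 (5th to 95th percentile -0.52 to 0.64, 15 libraries), and 12.8% of pairs exceeded 0.5. Genes with nearly adjacent ID numbers were closer. In 10 pairs, formed of 20 of the 80 genes, the ID numbers differed by 1 or 2, and their residual correlations had a median of 0.70 (range 0.34 to 0.94). They were 7 of the 403 pairs above 0.5. The highest were g21633 with g21634 (0.94) and g896 with g898 (0.90). Whether the ID order follows the genome, and whether such pairs share reads as near-identical copies or parts of 1 transcript, is stated neither in the labels nor in the files, so their counts are uncertain and the 80 are not 80 separate observations.

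Most of the 80 were caecum transcripts. In asymptomatic animals 59 of them had their highest mean CPM in caecum, which is 73.8% beside 26.3% of all genes of 10 CPM or more in caecum. Another 14 were highest in tube feet and 7 in dermis. For 34 of them (42.5%, beside 8.3% of all such genes) the caecum mean was 10 times or more that of either other tissue, and the median ratio to the higher of the other tissues was 4.31, against 0.543 over all such genes. A mean of 10 CPM or more in all 3 tissues was reached by 40 of the 80, without a share over all such genes given here. These 40 overlap the 34 above. The abundant g12788 belonged to both, at 19.9 times dermis and 23.4 times tube feet in reads per depth. The caecum libraries chose the genes, so the caecum side of these ratios is not independent of the rule.

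In the edgeR fits of caecum against dermis, 61 of the 80 were higher in caecum (18.4% of all genes tested) and 6 were lower (18.3%). Against tube feet, 63 were higher (16.9% of all genes) and 4 lower (22.3%). The rule's floor of 10 CPM in caecum favours genes that are high there, and the 5468 genes above that floor are the closer background. Of these, 35.2% were higher and 12.4% lower in caecum than in dermis, and 34.5% were higher and 13.4% lower than in tube feet. The largest excess was that of g2500, at 384 ± 209 CPM in caecum (SD, n = 15), 1.74 ± 2.19 in dermis (n = 14) and 0.800 ± 0.988 in tube feet (n = 13). Its log2 fold change was 8.28 ± 0.40 over dermis (SE; edgeR adjusted p = 3.73e-21) and 9.57 ± 0.37 over tube feet (edgeR adjusted p = 6.32e-22). Likewise g19687 had 332 ± 181 CPM in caecum and 1.83 ± 1.69 in dermis, a log2 fold change of 8.08 ± 0.43 (edgeR adjusted p = 4.81e-20). Far more abundant, g20081 had 5526 ± 3229 CPM in caecum and 14.8 ± 8.21 in tube feet, a log2 fold change of 9.45 ± 0.40 (edgeR adjusted p = 4.80e-21). Groups of these genes did not overlap between tissues: the lowest caecum value of g20081 was 1648 CPM and its highest tube feet value 37.8 CPM.

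The genes that were lower in caecum than elsewhere were led by g4646 and g12619. In asymptomatic animals g4646 had 21.9 ± 21.7 CPM in caecum (SD, n = 15), 316 ± 138 in dermis (n = 14) and 1235 ± 654 in tube feet (n = 13). Its log2 fold change was -3.47 ± 0.30 against dermis (SE; edgeR adjusted p = 3.75e-13) and -5.06 ± 0.28 against tube feet (edgeR adjusted p = 9.32e-18). For g12619 the levels were 16.0 ± 27.1, 381 ± 270 and 430 ± 209 CPM in the same order, with log2 fold changes of -4.77 ± 0.57 (edgeR adjusted p = 2.28e-09) and -4.65 ± 0.51 (edgeR adjusted p = 7.99e-10). In caecum, g12619 was nearly confined to smaller animals: 39.8, 19.9 and 23.8 CPM in small, 103, 11.3 and 28.7 CPM in medium, and 0 to 4.37 CPM in the 9 large and x-large libraries. It was 1 of the 5 genes with no overlap between the smaller and the larger animals. In dermis g12619 had 16.1 to 900 CPM and in tube feet 118 to 834 CPM, and its x-large dermis libraries (900, 823 and 436 CPM) were not low.

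Several of the 80 had next to no reads outside caecum. In tube feet, g1528 had no read in 13 libraries, which makes caecum at least 60.1-fold higher if the group is set at a floor of 3 reads. For g6696 it was 2 reads, a ratio of reads per depth of 171 (exact 95% interval 47.1 to 1416), and for g9883 1 read, a ratio of 190 (33.9 to 7548). The gene at the slope threshold, g12453, had 1 read in dermis (ratio 222, interval 39.6 to 8789) and 3 in tube feet (97.2, interval 33.1 to 473). Floors and intervals cover counting error only. Altogether 9 of the 80 were under 1 CPM in both other tissues. The steepest gene, g11410, was not of this kind, with 39.1 ± 56.9 CPM in caecum, 14.5 ± 7.77 in dermis and 41.9 ± 13.6 in tube feet.

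Whether the same genes fell with size elsewhere could be tested, since dermis and tube feet had no part in choosing them, although the animals were the same. No member passed the false discovery rate of 0.01 in either tissue. In dermis 71 of the 80 had a mean of 1 CPM or more and were tested, with 0 called (0.176% of all genes tested), and the median slope was -0.06 per class on the log2 scale beside -0.01 over all genes. The slope was negative for 39 and positive for 32. At an unadjusted p under 0.05 there were 17 (7 rising, 10 falling), 23.9% of those tested beside 6.94% of all genes, and DESeq2 called 0. In tube feet 62 were tested with 0 called (0.48% of all genes), the median slope was -0.0024 beside -0.01, and 32 were negative against 30 positive. Tube feet had 16 genes at an unadjusted p under 0.05 (6 rising, 10 falling), 25.8% beside 12.1% of all genes, and DESeq2 called 0. Slopes differed from gene to gene in both tissues, from -1.33 to 1.00 in dermis and from -1.35 to 1.42 in tube feet.

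The score over the 80 genes likewise lacked a steady descent outside caecum. In dermis it was 4.41 ± 0.24, 3.66 ± 0.19, 3.81 ± 0.34 and 4.11 ± 0.11 from small to x-large animals (n = 3, 3, 5 and 3). The score over the other genes went 4.99 ± 0.09, 4.23 ± 0.11, 4.62 ± 0.57 and 4.81 ± 0.27 in the same libraries, which is the same dip and return. The 100 caecum-enriched genes, 14 of them among the 80, stood at 0.671% ± 0.313, 0.341% ± 0.124, 0.3003% ± 0.0870 and 0.401% ± 0.141 of dermis gene reads, and g13155 at 0.427%, 0.193%, 0.166% and 0.250%. The part of these caecum transcripts in the dermis values was not tested. In tube feet the score was 3.87 ± 0.11, 3.78 ± 0.09, 3.64 ± 0.12 and 3.79 ± 0.04 (n = 2, 3, 5 and 3). The small and x-large classes thus overlapped there.

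**Figure D3:**
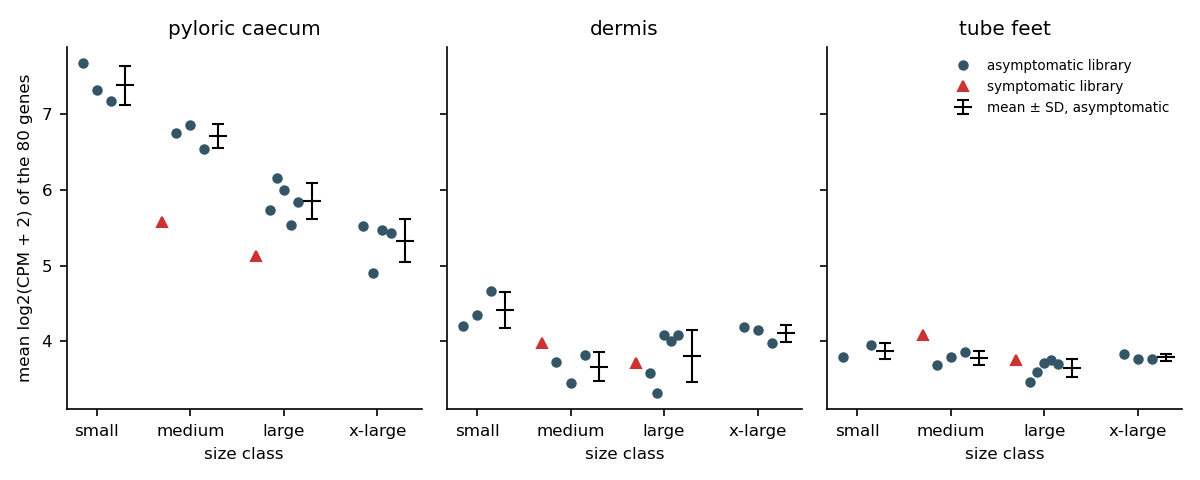
Mean log2(CPM + 2) of the 80 genes in each Point Reyes library against size class in pyloric caecum, dermis and tube feet, with asymptomatic libraries as circles, their mean ± SD as a bar, and symptomatic libraries as triangles. Caecum descends from 7.39 to 5.33 while dermis and tube feet stay between 3.3 and 4.7, and both symptomatic caecum libraries lie below the asymptomatic ones of their own size.

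Of the 62 genes tested in both other tissues, 18 had a negative slope in both, 14 a positive slope in both and 30 slopes of opposite sign. A test of the trend in tube feet minus that in dermis called 0 of 65 genes (0.0132% of all genes). An unadjusted p under 0.05 was reached by 10, 15.4% beside 5.83% of all genes, and DESeq2 called 0. Chosen after their values were seen, 2 genes came nearest to the threshold in tube feet. The slope of g6646 was 1.42 ± 0.32 per class (SE; edgeR adjusted p = 0.0191). It rested on 1 x-large animal, M0D055228P, with 199 CPM in tube feet against 14.04 and 9.22 CPM in the other x-large libraries, and the same animal had 238 CPM in dermis against 11.5 and 11.1 CPM. In caecum g6646 fell from 3589 ± 1448 CPM in small to 975 ± 645 CPM in x-large animals. For g21280 the tube feet slope was -1.35 ± 0.31 (edgeR adjusted p = 0.0253). The small animal M0D055219G had 809 CPM of it in tube feet and 175 CPM in dermis, the highest value in each tissue, while the other small tube feet library had 89.8 CPM and the large animal M0D055234V 230 CPM. In g7178 the tissues parted, with slopes of 0.68 ± 0.19 in dermis and -0.35 ± 0.11 in tube feet (difference -1.07 ± 0.26), none past the threshold (edgeR adjusted p = 0.179, 0.125 and 0.138).

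**Figure D4:**
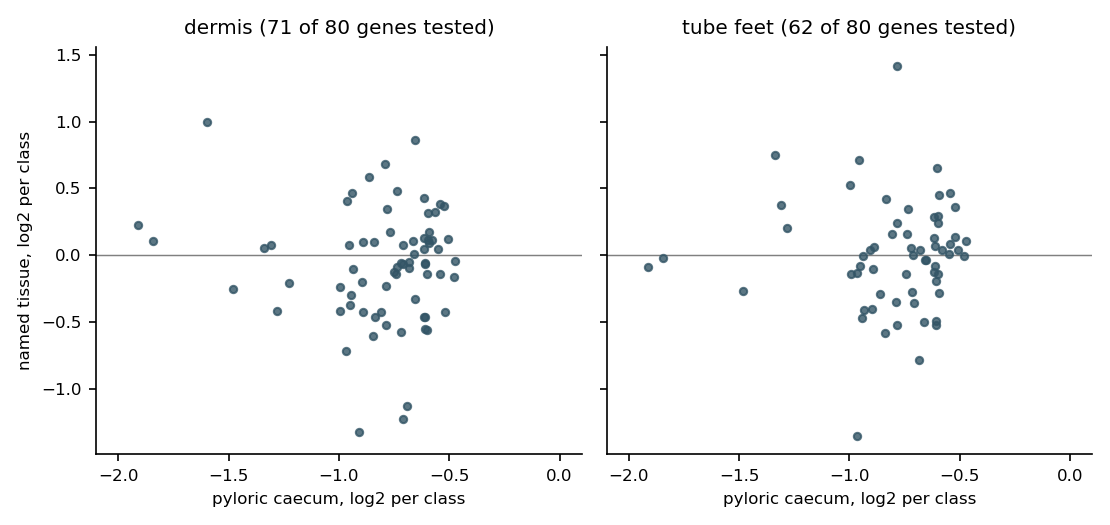
Slope per size class (log2, edgeR) of the tested genes in dermis (left, 71 genes) and tube feet (right, 62 genes) against their slope in pyloric caecum, the contrast that chose them; 1 point is 1 gene. Points scatter about 0 in both panels, from -1.33 to 1.00 in dermis and from -1.35 to 1.42 in tube feet.

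In wasting caecum, 59 of the 80 genes had a negative fold change (73.8%, beside 55.6% of all genes tested) and 3 passed the test, 1 lower and 2 higher. The 2 symptomatic caecum libraries were compared with the 8 asymptomatic ones of medium and large animals, with size as a covariate. Those 8 controls were among the 15 that chose the genes. Of the 80, 2 were higher past the false discovery rate (1.43% of all genes tested were) and 1 was lower (0.314%). The median log2 fold change was -0.83 beside -0.16 over all genes. At an unadjusted p under 0.05 there were 40, of which 30 were lower and 10 higher, 50% beside 18.8% of all genes. Both symptomatic libraries lay below all 8 controls in CPM for 20 of the 80 (10.2% of all genes) and above all 8 for 3 (4.21%). Scaling by library size alone, without TMM, moved the median of all genes to -0.48 and that of the 80 to -1.23, with 66.7% of all genes and 63 of the 80 then negative.

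The score over the 80 genes was 5.58 in the medium symptomatic animal, M0D055236X, against 6.53 to 6.86 in medium controls, and 5.12 in the large one, M0D055233U, against 5.54 to 6.15 in large controls. Each was thus below its size class, and the medium animal lay within the range of the large controls. The score over the other genes of 10 CPM or more was also low in M0D055236X, at 4.37 against 4.85 to 5.12 in medium controls. In M0D055233U that score was 4.85, within the 4.82 to 5.37 of large controls. The fall in M0D055236X was therefore not confined to the 80. The summed share of reads was 5.63% in M0D055236X, within the 5.58% to 6.18% of medium controls, and 2.37% in M0D055233U, below the 2.53% to 4.36% of large controls. In M0D055236X g13155 took 42.3% of the gene reads, against 25.9% in M0D055233U and 10.2% to 25.9% in the 8 controls. Whether this bears on the wasting values was not tested.

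The gene that was lower, g9947, had 10.7 CPM in M0D055233U (10 reads) and 38.0 CPM in M0D055236X (42 reads). The controls had 76.3 to 450 CPM with a median of 276 CPM. There was no overlap, and the log2 fold change was -3.33 ± 0.62 (SE; edgeR adjusted p = 0.00365). Higher in wasting was g9043, at 234 and 346 CPM against 26.0 to 115 CPM (median 44.0) in controls, a log2 fold change of 2.56 ± 0.47 (edgeR adjusted p = 0.00363). So was g5695, at 1393 and 949 CPM against 89.6 to 565 CPM (median 255), with 2.50 ± 0.46 (edgeR adjusted p = 0.0033). Both exceeded even the small asymptomatic animals, which had 37.2 to 143 CPM of g9043 and 213 to 447 CPM of g5695. Leaving out either symptomatic animal ended all 3 calls, in a fit where the lone symptomatic library is assumed to vary like the controls. The directions stayed. Without M0D055233U the log2 fold changes were 2.72 for g9043, 1.77 for g5695 and -2.74 for g9947 (edgeR adjusted p = 0.162, 0.421 and 0.242). Without M0D055236X they were 2.40, 3.003 and -4.16 (edgeR adjusted p = 0.0757, 0.0141 and 0.0230).

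Batch enters here as well, since M0D055233U was in batch 2 with 1 control and M0D055236X in batch 5 with 1 control, a large animal of the same beach. With batch as a covariate 0 of all 13381 genes were called, the median over the 80 was -1.16 and 60 were negative (75%, beside 53.3% of all genes). That fit had 29 of the 80 and 10.6% of all genes at an unadjusted p under 0.05. The lone control of batch 5 was large and the symptomatic animal medium, so size and wasting cannot be told apart within that batch. The 80 were chosen for falling with size. Without adjustment for size, the difference from the lone control had the sign of the main fit within both batches for 50 of the 80. The same libraries are part of the main fit, and no share over all genes is given, so this count is a description. For g9947 the difference was -4.03 in batch 2 and -2.60 in batch 5 on the log2 scale. For g9043 it was 1.53 and 3.25, and for g5695 1.96 and 3.38, in the same order.

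**Figure D5:**
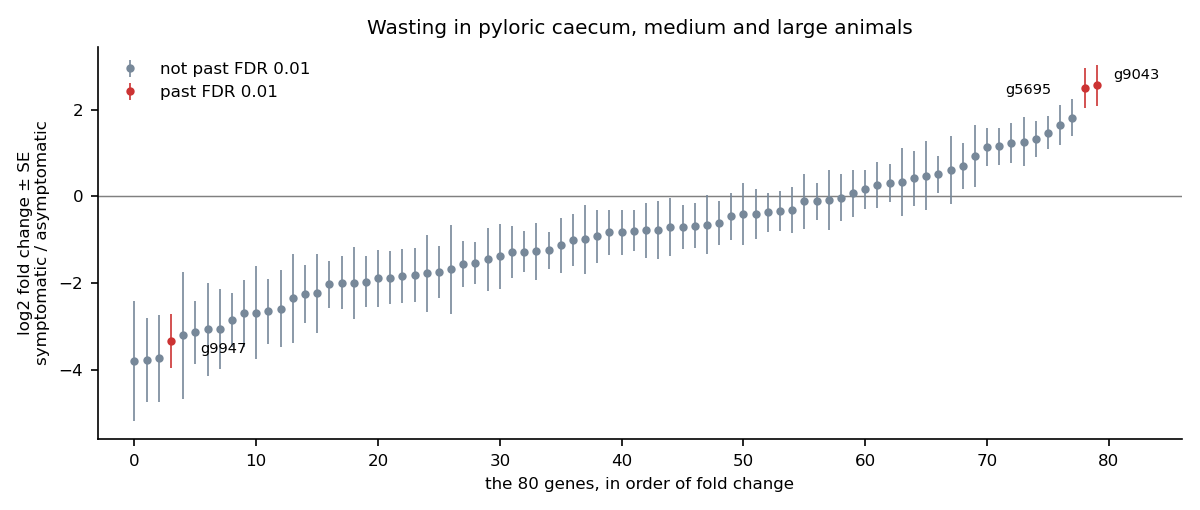
Log2 fold change ± SE of symptomatic (n = 2) over asymptomatic (n = 8) caecum, medium and large animals with size as a covariate, for the 80 genes in order of fold change. Of these, 59 lie below 0, and the 3 past a false discovery rate of 0.01 are red: g9947 at -3.33, g5695 at 2.50 and g9043 at 2.56.

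Feeding and colour, which are partly tied to size, were compared within size classes. Between 2 feeding and 7 other large and x-large animals, 0 of the 80 passed (0.0903% of all genes), and the median log2 fold change was -0.42 beside -0.02. At an unadjusted p under 0.05 there were 14 (3 higher, 11 lower), 17.5% beside 7.85% of all genes, and DESeq2 called 1. The abundant g12788 was among those at the high side, with 1.42 ± 0.60 (edgeR adjusted p = 0.544), which does not pass. The feeding animals were in batches 1 and 5, and this fit had no batch term. Between 3 orange and 4 brown animals of the medium and x-large classes, 0 of the 80 passed (0% of all genes). An unadjusted p under 0.05 was seen for 3, 3.75% beside 4.52% of all genes, and DESeq2 called 0 of the 80.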

How the data were processed

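The authors deposited 1 table per library with raw counts for 21777 genes and 5 summary lines, which were left out of library sizes. Reads were trimmed with Trim Galore 0.4.4 and aligned with TopHat2 2.0.13, with SAMtools 0.1.19 and edgeR also named, per the submitters' processing notes. Counter, strand setting, build and annotation were not given in the sources used here, so overlapping, antisense and duplicated genes cannot be told apart. RNA came from the Qiagen RNeasy Mini Kit and libraries from TruSeq RNA v2, per the labels.

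Groups follow the labels. CPM is a gene's count relative to the gene reads of its library, and slopes use log2(CPM + 2). Comparisons used edgeR 4.0.16 in R 4.3.3: quasi-likelihood F-tests, TMM, a mean of at least 1 CPM over the libraries fitted, and a Benjamini-Hochberg false discovery rate under 0.01 over all genes tested, which are the filter and threshold of the study's design text. DESeq2 1.42.0 was an alternative. SE is the log2 fold change over the square root of F. Size was a number from 1 to 4 in trends and a factor elsewhere. The scripts were checked on simulated data. Summaries used Python 3.11.15.

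Genes were named by a rule: the 2 lowest slopes, the 2 highest means, and up to 2 called per test and direction. For each step, the 2 lowest slopes over all classes among genes with their largest fall there were named. The 2 highest and lowest caecum ratios, the genes at the slope threshold and the gene with most caecum reads were named too. The genes, lists and tests were chosen with earlier results of these data known. Alternatives were scaling, filters, pseudocount, tool, threshold, batch, site, feeding, animal block and leaving out each library. The replicates are separate animals by their IDs, and libraries of the same animal pair across tissues by that label: their residuals had median correlations of 0.12 (caecum and dermis), 0.19 (caecum and tube feet) and 0.22 (dermis and tube feet).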

Additional observations from a re-analysis of the deposited data

Results flagged for a closer look

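Groups of 4 or 5 libraries of large or x-large animals, 38 in all, were examined for a library set far apart from the rest of its class. Most held caecum CPM of 1 gene, the others the score over the 80 genes in caecum, dermis or tube feet. About 1 group in 20 is flagged by chance for independent, normally distributed values. CPM of genes in the same libraries need not be such values, so the flagged number is not compared with chance. A library of this kind was found in 8 groups. In large animals these were g11410 in M0D055226N, at 55.0 CPM with the next library at 15.8 CPM, and g4646 in M0D055227O, at 33.01 CPM with the next at 8.48 CPM. The feeding animal M0D055232T held both others, with g12788 high at 9029 CPM beside 3407 CPM and g20081 low at 2152 CPM beside 4246 CPM. In x-large animals M0D055230R was high in g12820, at 480 CPM beside 237 CPM, and in g6696, at 12.1 CPM beside 3.28 CPM. The x-large M0D055229Q was high in g10681, at 274 CPM beside 70.3 CPM, although its mean log2(CPM + 2) over the 80 genes was the lowest of its class, at 4.90 beside 5.42.

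Outside the comparisons, the mean log2(CPM + 2) of the 80 genes in the tube feet of the symptomatic animal M0D055236X was 4.08, above the highest asymptomatic Point Reyes tube feet library at 3.95. In the M0D055236X library g13155 took 0.476% of gene reads, against 0.0493% to 0.158% in the asymptomatic Point Reyes ones. The 100 caecum-enriched genes took 0.544%, against 0.0937% to 0.309%. The asymptomatic Friday Harbor library also exceeded these ranges, at 0.341% and 0.389%, while the symptomatic one of that animal had 0.0858% and 0.171%. In M0D055236X the median log2(CPM + 2) over the 80 genes was 3.45, within the asymptomatic Point Reyes range of 3.24 to 3.93. The part of caecum transcripts in this score was not tested.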

How the results depend on the processing

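Of the values recomputed under an alternative, 271 were classed as the same, 20 counts moved, 13 calls of named genes were lost and 0 reversed. For a named gene, the same meant an unchanged direction past the threshold. For a count it meant only within 1.5 times the count as reported, and for the median slope within 0.24 of its value. Counts of 0 that stayed 0 made up 23 of the 271 for dermis, 16 for tube feet and 25 for the trend difference. Feeding and colour each gave 14 more. Another 23 were median slopes and 22 counts of genes chosen again, from the libraries that chose the genes. The total is therefore no measure of stability. The median slope stayed between -0.65 and -0.58 when each library was left out. Leaving out 1 library kept 59 to 75 of the 80 genes, and batches 3 and 4 alone kept 53. Dermis calls ranged from 0 to 1 with each library left out (1 without the x-large M0D055229Q). Tube feet calls were 2 at a false discovery rate of 0.05, 1 with batch as a covariate, 1 without feeding animals and 1 at McClures Beach only, and 0 to 3 with each library left out (3 without the x-large M0D055228P). The share of all genes called is not given here for these dermis and tube feet alternatives, so their counts lack a background. Feeding calls were 1 without the filter (0.618% of all genes) and 1 with DESeq2 (0.323%). Wasting calls, 3 in all, were 7 without the filter (2.42% of all genes called), 10 with DESeq2 (3.21%), 12 at 0.05 (4.97%), 6 with all 17 caecum libraries (3.36%), and 0 with batch as a covariate (0%) or at McClures Beach only (0.4925%), beside 1.75% of all genes in the test as reported; with each library left out they ranged from 0 to 7 (0 without either symptomatic animal, 7 without the feeding M0D055232T). Over 19 alternatives the adjusted p ran from 5.49e-05 to 0.421 for g5695, from 0.000142 to 0.241 for g9043 and from 2.37e-08 to 0.242 for g9947. The cause of these moves was not tested. For the wasting calls with 1 library left out, the share of all genes called is not given here. Those counts are therefore not read as a trait of the 80 or of the feeding animal. With the animal as a block (replicate block), calls over both directions were 69 against dermis, 67 against tube feet and 0 for the trend difference, which changed no call beyond 1.5 times. Scaling by library size alone moved the median of all genes from 0.04 to -0.54 for caecum against dermis and from -0.16 to -1.16 against tube feet. The limits are 2 symptomatic animals, classes of 2 to 5 animals, size tied to batch, colour and feeding, and 1 to 3 CPM per read.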
